A study of Mus musculus with 4 samples.

Results

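Zscan4b, Zscan4c, Zscan4d and Zscan4f on chromosome 7 and Tcstv1 and Tcstv3 on chromosome 13 are mouse genes that mark the 2C-like state. The 6 genes were chosen by name and not by a cut on their replication timing, but with earlier results of these data known. Their GENCODE vM21 gene bodies overlap 7 bins of 50 kb in the population-based replication timing profile, and with the bins within 1 Mb on each side they make 83 bins, 51 around Zscan4 and 32 around Tcstv. The whole profile holds 51153 bins with a value on the 19 autosomes and X.

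Replication timing was measured by Repli-seq in diploid F121-9 mESCs, a hybrid cas/129 embryonic stem cell line cultured in N2B27+2i+LIF. Cells that had taken up BrdU, a nucleotide analog that marks newly made DNA, were sorted by DNA content, and the labeled DNA was sequenced in 2 libraries of the early and 2 libraries of the late S-phase fraction. The deposited value, RT, is the log2 of early over late reads per bin, each scaled to its library size, so that RT above 0 means more early than late reads. Only 1 RT value per bin was used, which combines all libraries and both homologs. It therefore has no error between replicates and its read depth is unknown.

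The 2C-like state is a rare and reversible state of mESC cultures in which genes normally active at the start of embryonic transcription are switched on. Zscan4 genes encode SCAN domain and zinc finger proteins known for roles in telomere maintenance and genome stability, and Tcstv genes encode small proteins found in the same cells. Both families stand in tandem arrays of near-identical copies, so that short reads can be hard to assign to 1 copy. DNA that replicates early in S-phase generally lies in active chromatin and DNA that replicates late in inactive chromatin. RT was measured in the whole culture, and no value here comes from 2C-like cells alone.

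The likeness of the Zscan4 copies can be seen in the DNA before their start sites. RefSeq promoters of 4 of the 6 members were matched by symbol, those of the Zscan4 genes, in GRCm38.p6, a patch release of the mm10 assembly. The aligned stretch of 216 bases lies at chr7:10905051-10905266 (minus strand) for Zscan4b, chr7:11005506-11005721 (plus strand) for Zscan4c, chr7:11166183-11166398 (minus strand) for Zscan4d and chr7:11397699-11397914 (plus strand) for Zscan4f, and ends 0, 23, 34 and 0 bases before the RefSeq start. Each is printed 5′ to 3′ to show how little separates the copies, with the 12 positions at which the 4 genes are not all alike in capitals.
Zscan4b: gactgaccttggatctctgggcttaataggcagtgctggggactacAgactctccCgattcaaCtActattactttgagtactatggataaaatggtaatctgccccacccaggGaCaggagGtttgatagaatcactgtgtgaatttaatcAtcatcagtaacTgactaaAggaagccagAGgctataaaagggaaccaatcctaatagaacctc
Zscan4c: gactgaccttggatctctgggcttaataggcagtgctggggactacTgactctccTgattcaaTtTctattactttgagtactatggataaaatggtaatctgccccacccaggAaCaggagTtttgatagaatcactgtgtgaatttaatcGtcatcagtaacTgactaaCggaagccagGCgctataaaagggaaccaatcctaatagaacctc
Zscan4d: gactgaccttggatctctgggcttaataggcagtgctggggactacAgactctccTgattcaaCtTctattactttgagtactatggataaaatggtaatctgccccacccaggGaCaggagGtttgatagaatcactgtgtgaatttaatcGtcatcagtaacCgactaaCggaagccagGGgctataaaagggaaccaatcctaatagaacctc
Zscan4f: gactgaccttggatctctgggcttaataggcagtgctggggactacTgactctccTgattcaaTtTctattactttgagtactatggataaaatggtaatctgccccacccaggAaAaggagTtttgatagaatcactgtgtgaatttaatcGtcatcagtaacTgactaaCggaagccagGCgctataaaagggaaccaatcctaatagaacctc
Zscan4c and Zscan4f differed at 1 position (99.5% identity). Zscan4b and Zscan4f were the least alike, with 11 differences (94.9%). From Zscan4c, Zscan4b differed at 10 positions and Zscan4d at 6. These letters are those of the reference strain and were not read from the hybrid cells.

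All 4 Zscan4 genes were late replicating and both Tcstv genes were early replicating. Over the 5 bins of the Zscan4 genes RT averaged -3.07 ± 0.40 (SD, n = 5 bins), which 73.6% of all bins exceeded. Over the 2 bins of the Tcstv genes RT averaged 1.26 ± 0.97 (SD, n = 2 bins), which 29.8% of all bins exceeded. Genome-wide, 40.9% of bins had RT above 0 and the median RT was -0.98. The bins of a gene family are neighbors in 1 profile and are not replicates. To judge differences between bins, a noise SD was estimated from how far each bin strayed from the average of the bins beside it. Only bins whose neighbors differed from each other by at most 0.2 were used. The noise SD was 0.16 log2 over 13624 bins, so that bins differing by more than 0.44 were held to differ beyond noise. This covers noise between adjacent bins, not noise that neighbors share and not noise between cultures. Whether the deposited profile was smoothed is unknown, so the limit may be too narrow for bins farther apart.

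Zscan4b (ENSMUSG00000095339.2, chr7:10900740-10905050, minus strand) lay in the earliest bin of its family, with RT -2.54. Zscan4d (ENSMUSG00000090714.10, chr7:11161374-11166159, minus strand) followed with RT -2.98. Zscan4f (ENSMUSG00000070828.10, chr7:11397915-11402318, plus strand) spans a bin border, with RT -2.91 in the bin that holds its start and -3.56 in the next, a mean of -3.23. Zscan4c (ENSMUSG00000054272.6, chr7:11005745-11010547, plus strand) was latest, with RT -3.37. No neighbors in this order differed beyond noise, the largest gap being 0.437 between Zscan4b and Zscan4d, against a limit of 0.439. Zscan4b was earlier than Zscan4c by 0.83, beyond noise, and earlier than Zscan4f by 0.69, beyond the noise of all bins but within the limit of 0.76 for bins of like sequence uniqueness, described later. For Zscan4b and Zscan4c that limit was 0.73. Such limits hold for a single pair, whereas the earliest and latest genes are by construction the pair with the widest gap.

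Tcstv1 (ENSMUSG00000096284.2, chr13:119893388-119894785, minus strand) had RT 0.57, percentile 64.3 of all bins. Tcstv3 (ENSMUSG00000095821.2, chr13:120316878-120318178, plus strand) had RT 1.95, percentile 76.7. The 2 Tcstv genes thus differed from each other by 1.38, beyond noise. The bin of Tcstv3 is the last of chromosome 13 with a value, holds only 21639 assembled bases, and has a neighbor on 1 side only. The gene ends 103 kb before the chromosome end. Even the smallest gap between the families, 3.11 between Tcstv1 and Zscan4b, was far beyond noise.

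Around Zscan4, RT was low throughout. None of the 51 bins from 9900001 to 12450000 of chromosome 7 was above 0, where 0 of 51 allows a share of up to 5.88% at 3 counts and 6.98% by the exact 95% limit. Such limits take bins as independent, which neighboring bins are not. RT ran from -4.26 to -2.46 with a median of -3.01. The 11 bins from the first to the last Zscan4 member, 550 kb, averaged -3.02 ± 0.28 (SD over bins), the 20 bins to the left -3.29 ± 0.44, and the 20 bins to the right -2.96 ± 0.32. The mean of the gene cluster thus lay between those of its flanks and within 1 SD of each. Other Zscan4 copies of the array had RT of the same kind, -2.56 at Zscan4a, annotated as a pseudogene, -2.71 at Zscan4e, -3.18 at Zscan4-ps1, -3.55 at Zscan4-ps2 and -3.25 at Zscan4-ps3.

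**Figure D1:**
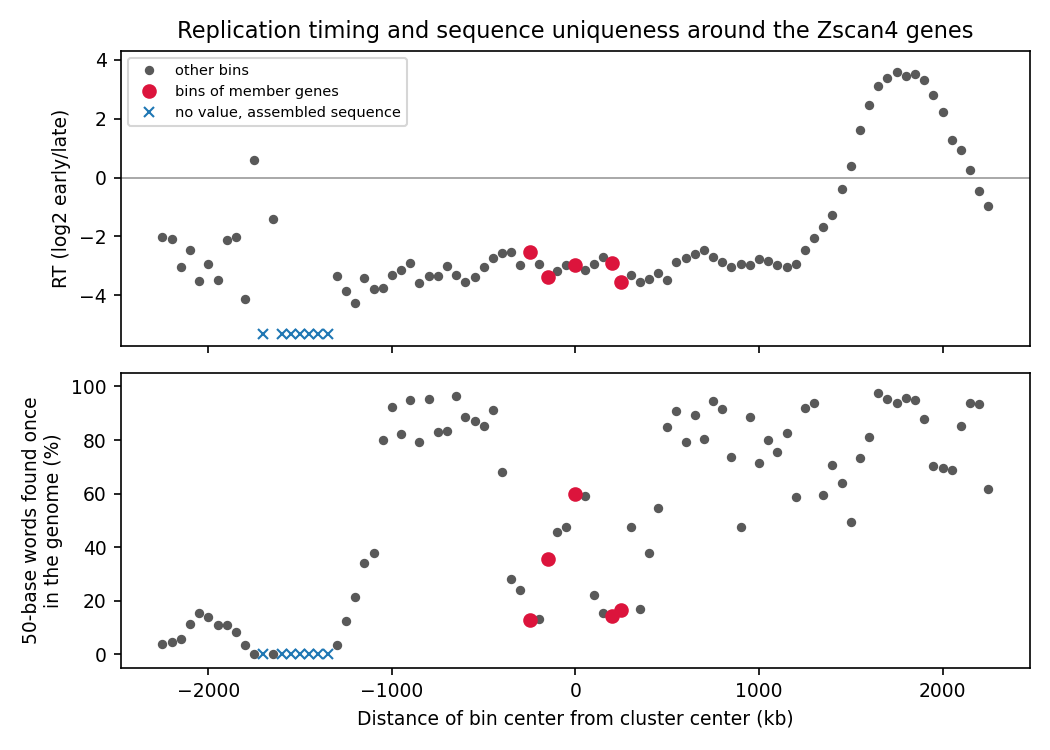
RT (top, log2 early over late) and percent of 50-base words found once in the genome (bottom) of each 50 kb bin against distance from the center of the Zscan4 cluster in kb, 2 Mb to each side. Red points are the bins of Zscan4b, Zscan4c, Zscan4d and Zscan4f, gray points other bins, and crosses, set at the foot of the top panel, the 7 bins with assembled sequence and no value. The member bins, -3.56 to -2.54, sit on the level of the late stretch around them while their uniqueness is 13.0% to 59.8%.

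The late stretch is shared with pheromone receptors. Of the 35 protein-coding genes in the Zscan4 window, 24 are vomeronasal receptor genes (Vmn1r and Vmn2r), with mean RT from -4.26 to -2.46. Across the genome, 12.4% of the 315 bins with a value at vomeronasal receptor genes were above 0 and their median was -2.46. The Zscan4 mean of -3.07 was below that median but lay between the quartiles of those bins, -3.24 and -1.02.

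To the right, RT crossed 0 at 12650069, between bins of -0.38 and 0.37 and 1248 kb beyond the end of Zscan4f, and the closest protein-coding gene was Vmn2r55. RT then rose to 3.59 in the bin that starts at 12900001. Trim28, a corepressor known to hold down 2C-like genes, lies in this early domain with a mean RT of 3.47. To the left, the first bin above 0 starts at 9400001, with RT 0.59, but none of its sequence was found only once in the genome. Using only bins with over 1% of such sequence, RT first crossed 0 at 7201579, 3699 kb before Zscan4b and closest to Zfp772.

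The Tcstv genes lie at the end of an early domain that reaches the end of the assembled chromosome. Of the 29 bins with a value from 118850001 onward, 20 were above 0, or 69.0% (exact 95% interval 49.2% to 84.7%, with the same limit), and all bins above 0 were contiguous with the Tcstv genes apart from bins with no value. RT ran from -2.98 to 2.07 with a median of 0.67. The bin at 2.07, which starts at 119550001, borders a gap in the assembly and holds only 4495 assembled bases. RT crossed 0 at 119287535, between bins of -0.21 and 0.62 and 606 kb before Tcstv1, and the closest protein-coding gene was Nnt, which encodes a mitochondrial transhydrogenase. From there RT stayed above 0 to the last bin. Nnt had a mean RT of 1.26 and Hmgcs1, a cholesterol synthesis enzyme gene, 1.32.

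Within the cluster, RT was uneven. The 10 bins from Tcstv1 to Tcstv3 (500 kb) averaged 0.94 ± 0.58 (SD over bins), from 0.27 to 1.95. RT fell to 0.27 in the bin that starts at 120050001 and stepped from 0.53 to 1.91 between the bins that start at 120200001 and 120250001. Of the 9 steps between neighboring bins, 3 were beyond the noise of all bins, at sizes of 0.79, 0.60 and 1.38. Only that of 1.38 was also beyond the noise of bins of like uniqueness, where the limit was 0.73. In the Zscan4 cluster 1 of 10 steps was beyond the noise of all bins, that of 0.65 inside Zscan4f, and none was beyond the noise of bins of like uniqueness. Steps beyond the noise of all bins also occurred in the left flank of the Tcstv cluster, where RT climbed through 0. RT rose there from -0.21 to 0.62 between the neighboring bins that start at 119250001 and 119300001. Such steps were not counted outside the clusters, so these counts do not set the clusters apart from other stretches. BC147527, a protein-coding gene, shares the bin of Tcstv3.

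**Figure D2:**
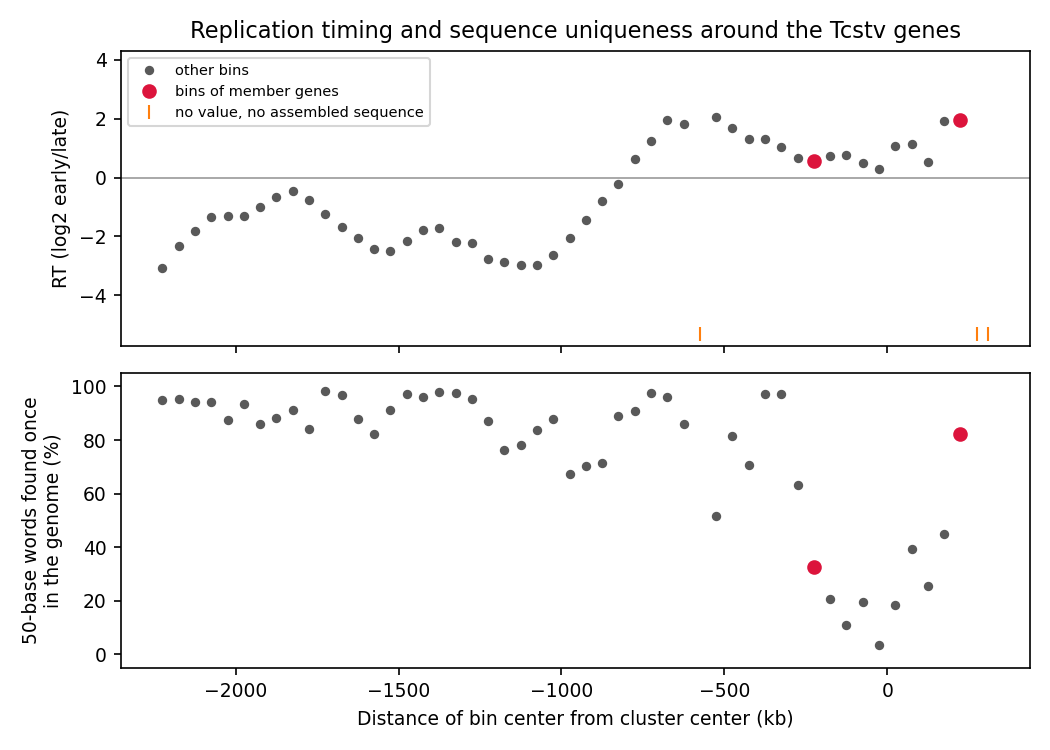
RT (top, log2 early over late) and percent of 50-base words found once in the genome (bottom) of each 50 kb bin against distance from the center of the Tcstv cluster in kb. Red points are the bins of Tcstv1 and Tcstv3, gray points other bins, and vertical ticks, set at the foot of the top panel, the 3 bins with no assembled sequence and no value. RT rises through 0 to the left of the cluster and reaches 2.07 in a bin with only 4495 assembled bases. It dips to 0.27 within the cluster, in a bin with only 3.54% of words found once, and ends at 1.95 where the assembly ends.

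The last 5 Mb of the autosomes had 54.6% of 1877 bins above 0 and a median RT of 0.39. Over the last 5 Mb of chromosome 13, 22 of 98 bins were above 0 and the median was -2.21, so the domain of the Tcstv genes holds 20 of the 22 early bins there.

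No bin that holds assembled sequence lacked a value in either window. All 51 Zscan4 bins had RT. Of the 32 Tcstv bins 3 had none, and all 3 are gaps in the assembly, 1 of them within Tmem267 and the others beyond Tcstv3. Genome-wide, 183 of 51331 bins with assembled sequence had no value (0.357%). With 2 Mb on each side of Zscan4, 7 bins with assembled sequence had none (7.69%). They all lie to the left, between 9450001 and 9850000, and at most 0.055% of their sequence was found only once in the genome.

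Having a value does not say how many reads could be assigned there. As a measure of this, words of 50 bases were taken every 10 bases and matched exactly to both strands of the mm10 reference. In the bins of the Zscan4 genes the share of words found once was 13.0% (Zscan4b), 35.6% (Zscan4c), 59.8% (Zscan4d), and 14.4% and 16.7% (Zscan4f), against a median of 94.1% over all bins with a value. Most of the repeated words had their copies close by. In the bin of Zscan4b 50.5% of words recurred only inside the Zscan4 window and 36.5% had a copy elsewhere, and in the bins of Zscan4f 60.3% and 69.7% recurred only inside it. The bin of Tcstv1 had 32.7% of words found once and 45.8% recurring only inside the Tcstv window. The bin of Tcstv3, by contrast, had 82.2% found once.

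Bins of repeated sequence were noisier. For classes of uniqueness the noise SD was taken over bins with a value on both sides, however different, which gave 0.14 over all classes. It was 0.58 for bins with under 10% of words found once (352 of the 505 bins of that class), 0.31 for 10% to 30%, 0.19 for 30% to 60%, 0.14 for 60% to 90% and 0.13 above 90%. Within the Zscan4 cluster the same noise SD was 0.22 over 11 bins, and in its flanks 0.18 over 40 bins. Within the Tcstv cluster it was 0.34 over 9 bins, and in its flank 0.10 over 17 bins. The part of read assignment in the RT of single copies was not tested. Less repeated bins of the windows were also counted. Of those with at least 60% of words found once, 0 of 28 in the Zscan4 window and 10 of 19 in the Tcstv window were above 0. All 11 bins from the first to the last Zscan4 member and 9 of the 10 Tcstv ones fell under 60%. These counts therefore describe mostly the flanks and not the levels within the clusters. The 10 early Tcstv bins under 60% ran from 0.27 to 2.07, with a median of 0.75, and the 10 at or above 60% from 0.62 to 1.95, with a median of 1.32. The bin at 2.07 lies outside the cluster and holds only 4495 assembled bases.

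**Figure D3:**
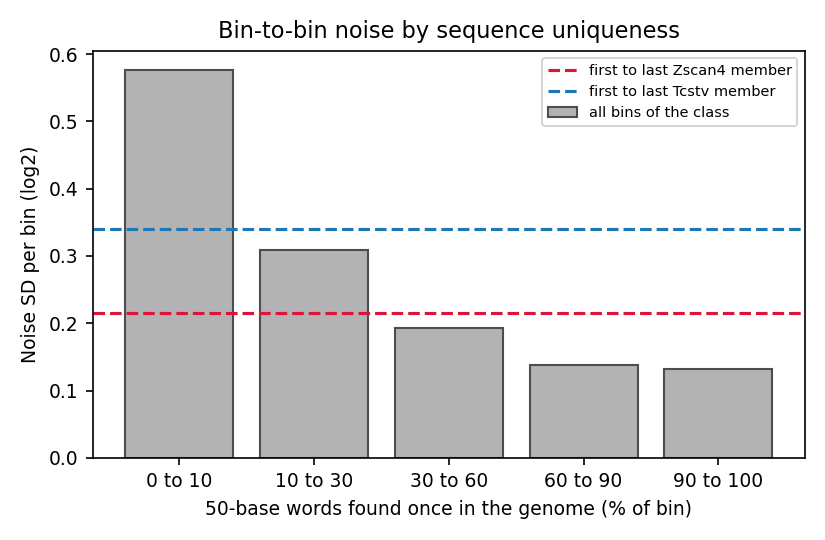
Noise SD per bin (log2, bars), over all bins with a value on both sides, in 5 classes by the percent of 50-base words found once in the genome. Dashed lines give the same noise SD within the Zscan4 cluster (0.22) and within the Tcstv cluster (0.34), and bars fall from 0.58 to 0.13 as uniqueness rises.

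Late replication, as at Zscan4, was the more common state in a list of other genes of the 2C-like program. That list was fixed with earlier results of these data known, so its counts describe the listed genes only. Of its 23 names, 22 were distinct genes in the annotation, and all had RT. Of these, 3 had mean RT above 0 and 19 below, with a median of -2.63, against 72.5% of all protein-coding genes above 0 and a median of 2.23. The genes stand in 12 places over 1 Mb apart, so neighbors in 1 array count more than once. Outside both windows 2 of 19 were above 0, and among the 12 with at least 60% of words found once, 2. The earliest were Tmem92 (2.31), Pramef12 (1.13) and Gm21761 (0.73), the last of which stands next to Tcstv1. The latest were the deubiquitinase genes Usp17la (-4.34), Usp17le (-4.00) and Usp17lb (-3.69).

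Genes known to control the state were also examined, from a list fixed with the same earlier results known. Of 17 regulators, which include chromatin repressors, the CAF-1 chromatin assembly complex and the activators Dppa2 and Dppa4, all 17 had mean RT above 0, with a median of 3.26, beside 72.5% and 2.23 for all protein-coding genes, so that RT above 0 was also the usual state of genes. The earliest were Chaf1a (3.77), a CAF-1 subunit gene, L3mbtl2 (3.77), a Polycomb-group gene, and Ehmt2 (3.58), which encodes a histone H3 methyltransferase. The latest were Tet2 (1.70), a 5-methylcytosine oxidase gene, Dppa4 (2.18) and Dppa2 (2.36). Tcstv3, at 1.95, lay within the range of the regulators, whereas Tcstv1, at 0.57, and the Zscan4 genes lay below all 17.

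**Figure D4:**
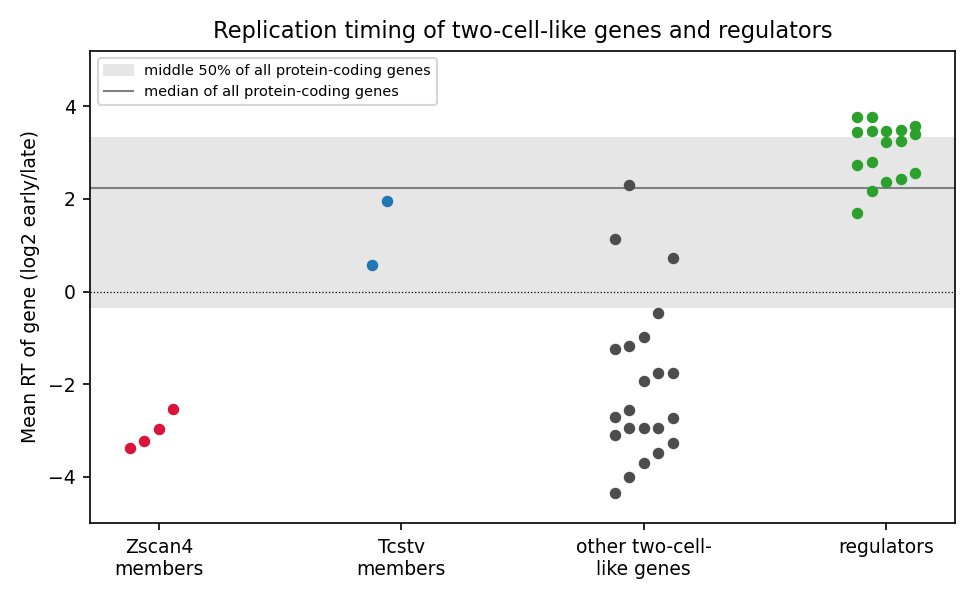
Mean RT (log2 early over late) of each Zscan4 member, Tcstv member, other gene of the 2C-like program and regulator, 1 point per gene, with sideways offsets only to separate points. The gray band and line give the middle 50% and the median (2.23) of all protein-coding genes. All Zscan4 members and 19 of the 22 other listed genes of the program lie below 0, and all 17 listed regulators above it.

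Among the genes of both lists, those closest in mean RT to the Zscan4 bins were Sp110 (-3.09), Tdpoz3 and Tdpoz5 (-2.95 each), Zfp352 (-2.94) and Usp17ld (-3.27). Those closest to the Tcstv bins were Pramef12 (1.13), Tet2 (1.70), Gm21761 (0.73), Dppa4 (2.18) and Tmem92 (2.31). Gm21761, Dppa4 and Tmem92 differed from the Tcstv mean by 0.53, 0.92 and 1.05, so they were closest by rank only. That mean is itself over 2 bins, at 0.57 and 1.95. Both rankings are over 1 profile only, so they compare a level and not a pattern across samples.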

How the data were processed

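Per the labels and the paper's methods, the authors converted reads of the early and late fractions to RPM and deposited the log2 of early over late per 50 kb bin, with replicates combined. The labels name mm10, Bowtie2, SAMtools and bedtools. The paper's read mapping methods apply a mapping quality cutoff and remove PCR duplicates, but do not say whether this covers the Repli-seq libraries. Any smoothing or scaling beyond RPM, and how replicates were combined, are not given in the sources used here. No normalization was added. Bins of 51427 in the file on other chromosomes (274) were left out, and positions are written from 1. Gene RT is the mean over bins that the GENCODE vM21 gene body overlaps. The noise SD is the median absolute deviation from the mean of both neighbors, scaled to the SD of 1 bin, over bins whose neighbors differ by at most 0.2. For classes of uniqueness it was taken without that restriction. Differences were held beyond noise when above 2 SDs of a difference, from all bins or from bins of the same class of uniqueness. As there is 1 value per bin, no test was run.

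The members and lists were chosen with earlier results of these data known. Genes named are the members, genes of both windows that overlap a member bin or a bin with no value or are closest to a crossing of RT 0, the 3 earliest and 3 latest genes of each list, and the 5 closest in RT to each cluster. Hmgcs1, Trim28 and the other Zscan4 copies were added for context after their values were seen. Alternatives covered smoothing, window size, the bins counted, the annotation and the cut between early and late. The count of words found once and the noise SD were tested on simulated data, and the other steps were not. Calculations used Python 3.11.15 with numpy 2.4.6, pandas 2.3.3, scipy 1.17.1, numba 0.67.0 and matplotlib 3.10.9.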

Additional observations from a re-analysis of the deposited data

How the results depend on the processing

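Of 43 recomputed values, 36 kept their level and 7 moved. Some of those kept could not have moved. Where no bin of a window lacked a value or lay above 0, the same held for every part of it. Leaving out bins next to a bin with no value removed no Zscan4 gene bin, and RefSeq gene bodies gave the same means for both clusters. The count of 17 regulators could not change with the cut at the median RT, which lies below 0. It also could not change with the restriction to at least 60% of words found once, which left out no regulator. A mean was held as kept within the noise SD of 1 bin (0.16), a share within its exact 95% interval, and a count or noise SD within 1.5 times. The late mean of the Zscan4 bins and its side of RT 0 were kept under every alternative run, and the Tcstv mean stayed above 0. The Tcstv mean fell from 1.26 to 0.94 over all bins from the first to the last member, and to 0.57 without bins next to a bin with no value, which leaves only Tcstv1. The share of Zscan4 window bins above 0 was 17.9% with 2 Mb on each side, against 0% with 1 Mb, and the share without a value was then 7.69%. The share of Tcstv window bins above 0 was 100% with 500 kb and 40.8% with 2 Mb on each side, against 69.0%. With the early cut at the median RT of all bins, 5 other genes of the 2C-like program were above it, against 3. The wider windows take in other domains by construction. The restriction to bins or genes with at least 60% of words found once, chosen after seeing the data, gave 52.6% for the Tcstv window and 2 genes, both inside these bounds. For bins, it leaves out the whole Zscan4 cluster and 9 of the 10 bins of the Tcstv cluster. For the other genes of the 2C-like program, it keeps 12 of 22, so their count could not rise. No paired analysis was possible because the deposited profile holds 1 value per bin for all replicates, and for the same reason leaving out each replicate could not be run. Read depth per bin is unknown, so counting error cannot be given.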
